A study of Mus musculus with 6 samples.

Results

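The 10 genes described here are those of the insulin-like growth factor (IGF) family that were picked by symbol from the deposited expression table: the binding proteins Igfbp2, Igfbp3, Igfbp4, Igfbp5, Igfbp6 and Igfbp7, the ligands Igf1 and Igf2, and the receptors Igf1r and Igf2r. All 10 are among the 16880 genes listed. The family was put together with the difference between the groups already known for some of its members, so the values of that difference are given as a description, with standard errors and without p-values. RNA was sequenced from cells labelled as ATDC5, an established mouse chondrogenic cell line grown in medium with fetal bovine serum, whereas the methods describe cultures of primary articular chondrocytes of newborn mice and call the sequenced cells chondrocytes. Both groups received 10 ng/mL interleukin-1β (IL-1β), an inflammatory cytokine. In 3 libraries it was given alone, and in the other 3 it was combined with 10 μM NP-G2-044, a small-molecule inhibitor of the actin-bundling protein Fascin1 (FSCN1), for 24 h according to the methods. The titles give the compound as NP-G2-044, while the treatment label of the same samples reads NP-G2-047. An untreated group was not analysed here, and the inhibitor is seen here only on top of IL-1β, in 1 cell line.

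IGF1 and IGF2 are secreted growth factors that signal through the receptor tyrosine kinase IGF1R, and IGF1 is known to stimulate matrix synthesis by chondrocytes. IGF2R carries mannose 6-phosphate-tagged enzymes to lysosomes and removes IGF2 from the cell surface without passing on a growth signal. The IGF-binding proteins hold the ligands outside the cell, where they can shield them from the receptor or release them after cleavage by proteases.

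The libraries held between 16615824 and 17735860 estimated reads, and 14155 to 14383 genes had at least 1 read. Library totals were 16615824 to 16878164 with IL-1β and 17529844 to 17735860 with the inhibitor, and no library stood apart from its group. Fscn1 RNA averaged 616.2 ± 9.46 TPM with IL-1β and 252.4 ± 2.46 TPM with the inhibitor (SD, n = 3 each), which does not check the labels because the compound acts on the protein. Of 12 chondrocyte markers, 9 were listed and 3 of these (Sox9, Sox5 and Col11a2) averaged at least 1 TPM. Col2a1, which defines cartilage, averaged 0.217 TPM with IL-1β and 0.04 TPM with the inhibitor, so this defining marker was close to 0 in both groups. On 32 against 6 reads it was lower with the inhibitor (log2 fold change −2.41, adjusted p = 4.76e-05 by edgeR's test). Of the 5 chondrocyte markers tested, 2 (Col2a1 and Sox5) were lower and 0 higher past the cutoffs given below. The 3 markers above 1 TPM did not move together, as Sox9, a transcription factor of cartilage, went from 6.44 to 11.4 TPM (log2 fold change 0.85, adjusted p = 5.07e-16 by edgeR's test), whereas Sox5 went from 10.3 to 2.27 TPM and Col11a2 from 5.01 to 3.43 TPM (log2 fold changes −2.49 and −0.56, adjusted p = 5.06e-33 and 1.18e-08 by edgeR's test). Of 10 fibroblast markers, 8 averaged at least 1 TPM, and their sum, led by S100a4, was 5385 to 5574 TPM with IL-1β and 1068 to 1154 TPM with the inhibitor. Thy1 was at 0 in all libraries. The fibroblast list had 8 tested genes, 6 of them lower and 1 (Pdgfra) higher past the cutoffs given below. Over all tested genes, 10.1% were lower and 6.48% higher past them. Any part of the marker differences in the values of the IGF family was not tested. The defining markers of leukocytes (Ptprc), epithelium (Epcam) and muscle (Des) were at 0 in all 6 libraries, whereas Cd68 of the macrophage list averaged 12.4 TPM and 129.9 TPM. The osteoblast sum was 108 to 123.7 TPM with IL-1β and 18.5 to 20.8 TPM with the inhibitor, and the adipocyte sum was 4.87 to 7.53 TPM and 0.48 to 0.91 TPM. Past the same cutoffs, 3 of 4 tested osteoblast markers and 2 of 2 tested adipocyte markers were lower. The endothelial sum stayed at or below 0.73 TPM. In bulk RNA, fewer cells of a type and less RNA per cell cannot be told apart.

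The most abundant binding-protein transcript changed from Igfbp3 to Igfbp4. With IL-1β alone Igfbp3 made up 93.9% ± 0.276 (SD, n = 3) of the summed TPM of the 6 binding-protein genes, and with NP-G2-044 Igfbp4 made up 69% ± 2.95 (SD, n = 3). The ligand genes Igf1 and Igf2 were close to undetected in both groups. Of the receptor genes, Igf1r was lower and Igf2r higher with the inhibitor, both by less than a doubling. Values are in TPM (transcripts scaled to a fixed total per library), which is scaled for gene length and library size and so allows levels of different genes to be compared.

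**Figure D1:**
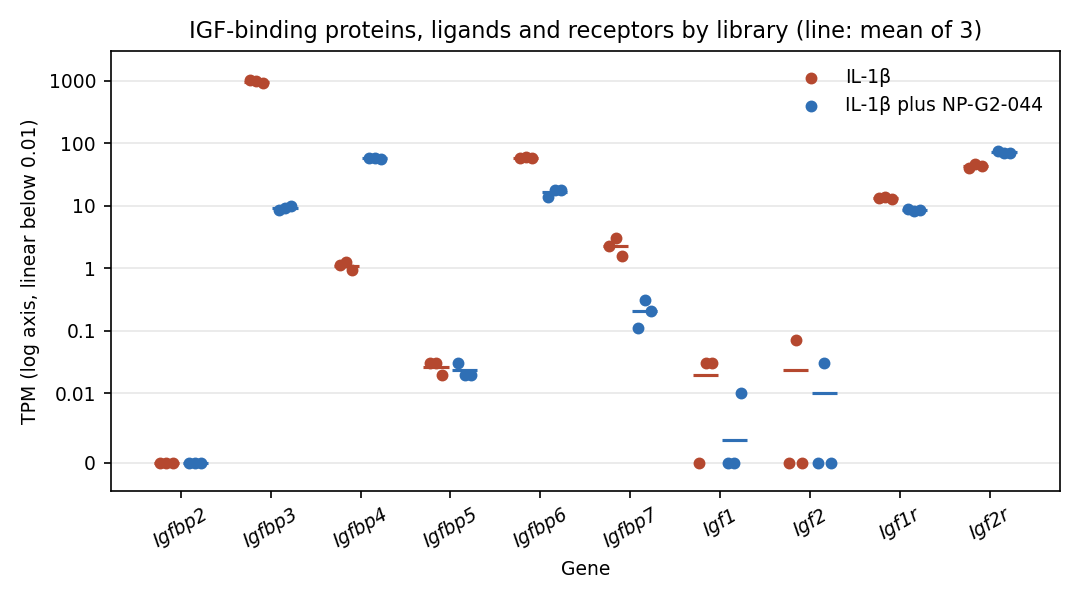
Level of each of the 10 genes in each library, in TPM on a log axis that is linear below 0.01; each point is a library and each line the mean of 3. Igfbp3 lies at 910.9 to 1011 TPM with IL-1β and at 8.44 to 10.1 TPM with IL-1β plus NP-G2-044, Igfbp4 lies at 0.93 to 1.26 TPM and at 55.6 to 58.8 TPM, and Igfbp2, Igfbp5, Igf1 and Igf2 lie below 0.1 TPM in all 6 libraries.

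For the 3 binding-protein genes with the largest edgeR log2 fold changes in either direction, the 250 bases before their RefSeq start site are shown. They are from GRCm38.p6, written 5′ to 3′ on the strand of the gene. The start sites used by the transcripts described next were not measured. Capitals mark matches, on either strand, to any of 6 motifs, which were the TATA motif TATAAA, the Sp1 motif (or GC box) GGGCGG, the AP-1 motif TGANTCA, the cyclic AMP response element TGACGTCA, the composite C/EBP and ATF motif TGATGNAA and the FoxO motif GTAAACA. No match overlaps another in the windows printed. Igfbp3 lies at chr11:7213924-7214173 (minus strand), Igfbp4 at chr11:99040994-99041243 (plus strand) and Igfbp7 at chr5:77408046-77408295 (minus strand).
Igfbp3: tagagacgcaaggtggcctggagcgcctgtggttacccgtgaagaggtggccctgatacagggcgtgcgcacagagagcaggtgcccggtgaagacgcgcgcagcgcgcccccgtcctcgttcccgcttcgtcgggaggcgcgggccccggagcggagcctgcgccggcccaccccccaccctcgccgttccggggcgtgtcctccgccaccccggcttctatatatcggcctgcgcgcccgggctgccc
Igfbp4: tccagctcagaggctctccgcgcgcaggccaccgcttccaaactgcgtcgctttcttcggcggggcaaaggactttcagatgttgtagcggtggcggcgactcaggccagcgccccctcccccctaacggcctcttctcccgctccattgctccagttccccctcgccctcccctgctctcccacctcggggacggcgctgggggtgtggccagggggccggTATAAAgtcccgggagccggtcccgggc
Igfbp7: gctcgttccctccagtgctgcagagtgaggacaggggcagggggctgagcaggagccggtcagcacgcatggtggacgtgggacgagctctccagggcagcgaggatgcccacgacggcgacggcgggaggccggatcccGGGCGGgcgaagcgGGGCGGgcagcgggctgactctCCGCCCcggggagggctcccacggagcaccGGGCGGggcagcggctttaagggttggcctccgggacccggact
The Igfbp3 window held none of the 6 motifs in these exact letters. Near its end it does hold tatatat, a stretch of T and A that the search for TATAAA does not count. The lack of a match is therefore not a lack of a TATA-like stretch. The Igfbp4 window held a TATAAA whose first base lies 28 bases before the start site, a motif present in 12.4% of all 32851 promoter windows of the same length and in 6.35% of the 12355 windows that belong to genes tested here. The Igfbp7 window held 4 GC boxes, and at least 1 was present in 32.7% of all windows and in 57.8% of those of tested genes. All 3 windows were rich in G and C, at 73.2%, 69.2% and 74% of bases for Igfbp3, Igfbp4 and Igfbp7, against a median of 52.4% over all windows. The median over windows of tested genes alone, which held GC boxes more often, was not taken. A match is a description of the letters and not a binding site. The start site annotated for Igfbp6 lies 176 bases from the nearest GENCODE start, and its window is not printed.

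IGFBP3 is the chief carrier of IGFs in blood and also acts in tissues. Igfbp3 (Entrez gene 16009, chromosome 11, positions 7206086 to 7213923 of GRCm38, minus strand) had 1011, 974 and 910.9 TPM in the IL-1β libraries and 8.44, 9.22 and 10.1 TPM in the libraries with NP-G2-044. The lowest IL-1β library was far above the highest library with the inhibitor. These levels rest on 23627, 22098 and 21097 reads against 207, 231 and 251 reads. The mean level was 104.5 times lower with the inhibitor, and the log2 fold change was −6.67 (standard error 0.0595), where, as in all fold changes here, a negative sign means a lower level with the inhibitor. Among all genes ordered by TPM, Igfbp3 stood at positions 133 to 143 of 16880 with IL-1β and at positions 8124 to 8530 with the inhibitor. Its fall was the 13th in size of 11983 genes tested. Its mean was 965.3 ± 50.6 TPM with IL-1β and 9.24 ± 0.805 TPM with the inhibitor (SD, n = 3 each).

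IGFBP4 mostly restrains IGF action and is cleaved by the protease pappalysin. Igfbp4 (Entrez gene 16010, chromosome 11, positions 99041244 to 99054392, plus strand) had 1.12, 1.26 and 0.93 TPM in the IL-1β libraries and 58.8, 58.4 and 55.6 TPM with the inhibitor. The groups did not overlap. The IL-1β values rest on only 22, 24 and 18 reads, against 1202, 1220 and 1162 reads with the inhibitor. The log2 fold change was 5.73 (standard error 0.0935), and the ratio of the pooled reads, scaled by the read totals, was 53.2 with an exact 95% binomial interval (Clopper-Pearson) from 41.6 to 69.2. Intervals of this kind cover counting error only. Its rise was the 12th in size of the 11983 genes tested, and it moved from positions 10950 to 11206 among all genes by TPM to positions 2863 to 2981. On the scale of log2(TPM + 1), limma gave a log2 fold change of 4.80.

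IGFBP6 binds IGF2 more tightly than IGF1. Igfbp6 (Entrez gene 16012, chromosome 15, positions 102144362 to 102149511, plus strand) had 58.1, 60.2 and 57.9 TPM with IL-1β and 14, 18 and 17.5 TPM with the inhibitor. All 3 inhibitor libraries were below all 3 IL-1β libraries, and the library of replicate 1 was the lowest of them. The means were 58.7 ± 1.24 TPM and 16.5 ± 2.2 TPM (SD, n = 3 each). The log2 fold change was −1.80 (standard error 0.0729). IGFBP7 binds IGFs only weakly and is a secreted matrix-associated protein. Igfbp7 (Entrez gene 29817, chromosome 5, positions 77349240 to 77408041, minus strand) was a low-level transcript, counted with 21, 27 and 14 reads under IL-1β and 1, 3 and 2 reads under the inhibitor. In TPM these were 2.3, 3.05 and 1.56 against 0.11, 0.31 and 0.21, again without overlap. Its log2 fold change was −3.36 (standard error 0.461), and its pooled reads were 10.9 times lower with the inhibitor, with an exact 95% binomial interval from 4.72 to 30.8. With limma on log2(TPM + 1) the log2 fold change was −1.43. Exons of Igfbp7 overlap those of Polr2b on the opposite strand over 85 bases. Polr2b itself averaged 121.7 TPM and 72.3 TPM (log2 fold change −0.72, Benjamini-Hochberg adjusted p = 1.49e-28 by the edgeR quasi-likelihood test). The sources used here do not give the strand setting of the counting, so some of the few Igfbp7 reads could belong to this neighbour.

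The remaining binding-protein genes were at or near 0. Igfbp2 had no read in any library, which allows a level of up to 0.0597 CPM over the IL-1β libraries and 0.0567 CPM over the others (CPM being counts scaled to a common library total, and the limit 3 reads of each group's total). Igfbp5, whose protein is the most conserved binding protein and abundant in bone, had 2, 2 and 1 reads with IL-1β and 2, 1 and 1 reads with the inhibitor. Neither gene gives a difference at this depth. They are neighbours on chromosome 1, pointing toward each other with 5.46 kb between their ends in GENCODE vM21. Igfbp1, which lies 3.54 kb from Igfbp3 on chromosome 11 and was not among the 10 genes, also had no read in any library.

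**Figure D2:**
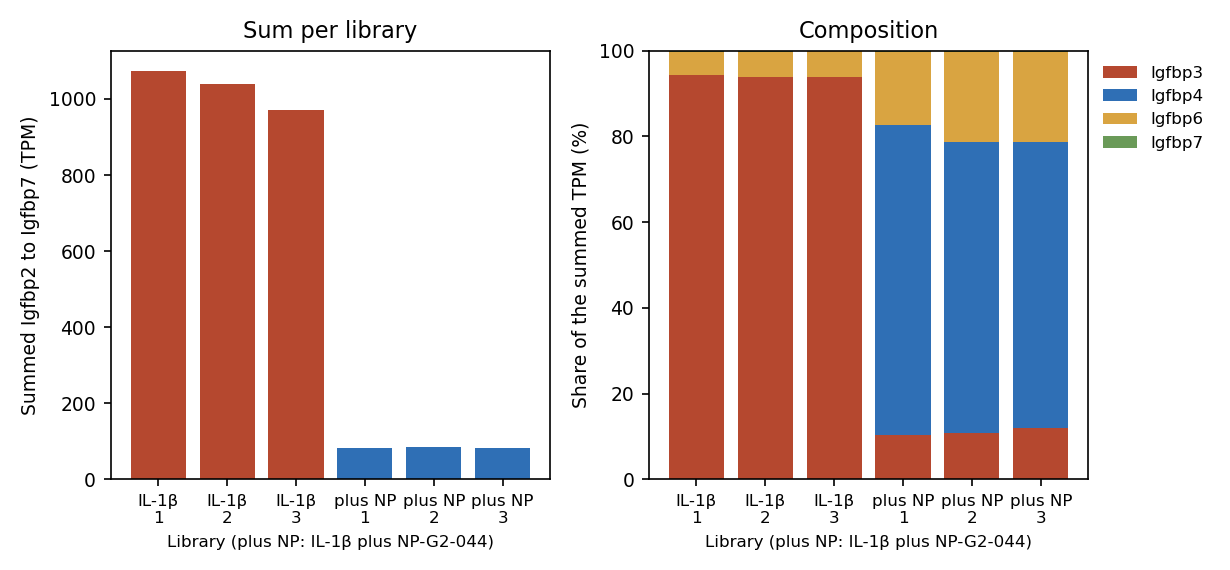
Left, summed TPM of Igfbp2 to Igfbp7 in each library, with bars from 0; right, the share of that sum held by Igfbp3, Igfbp4, Igfbp6 and Igfbp7 in percent. The sum is 971.4 to 1073 TPM in the IL-1β libraries and 81.4 to 86 TPM in the NP-G2-044 libraries, Igfbp3 fills most of the first 3 bars and Igfbp4 most of the last 3, and the Igfbp7 share of at most 0.361% is too thin to see.

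Added together, the binding-protein genes had 1073, 1039 and 971.4 TPM with IL-1β and 81.4, 86 and 83.4 TPM with the inhibitor, so the mean sum was 12.3 times lower with it. The fall of the sum lay in Igfbp3. Without this gene the sum was 60.5 to 64.5 TPM with IL-1β and 73 to 76.7 TPM with the inhibitor, so the other binding-protein genes together were slightly higher. The share of Igfbp3 went from 93.8% to 94.3% in the IL-1β libraries to 10.4% to 12% in the inhibitor libraries. Igfbp4 held 0.0957% to 0.121% of the sum with IL-1β and 66.6% to 72.3% with the inhibitor. Igfbp6 went from 5.73% ± 0.28 to 19.7% ± 2.2 (SD, n = 3 each), a larger share although its own level fell. The ratio of Igfbp3 to Igfbp4, in TPM, was 773 to 979.5 in the IL-1β libraries and 0.143 to 0.181 in the others.

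Of the ligand genes, Igf1 (chromosome 10) was counted with 0, 2 and 2 reads under IL-1β and 0, 0 and 1 reads under the inhibitor. Igf2 (chromosome 7) had 0, 2 and 0 reads against 0, 1 and 0 reads. Pooled over libraries and scaled by the read totals, the ratio of IL-1β to inhibitor reads was 4.21 for Igf1 with an exact 95% binomial interval from 0.417 to 207.3, and 2.1 for Igf2 with an interval from 0.11 to 124.2. No difference could be shown at this depth for either ligand, and the transcripts were scarce in all 6 libraries. Exons of Igf2 share 3596 bases with the protein-coding gene model Gm49394 on the same strand and 98 bases with Igf2os on the opposite strand. Neither is among the genes listed. The sources used here do not give the annotation used for counting, so even these reads cannot be placed with certainty.

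IGF1R carries the growth signal of both ligands. Igf1r (Entrez gene 16001, chromosome 7, positions 67952827 to 68233668, plus strand) had 13.4, 13.6 and 13 TPM with IL-1β and 8.81, 8.18 and 8.58 TPM with the inhibitor. Every inhibitor library was below every IL-1β library, with means of 13.3 ± 0.346 TPM and 8.52 ± 0.319 TPM (SD, n = 3 each). The log2 fold change was −0.62 (standard error 0.0389). Igf2r (Entrez gene 16004, chromosome 17, positions 12682406 to 12769664, minus strand) went the other way, with 40.2, 45.6 and 43.6 TPM against 74.9, 70.1 and 68.7 TPM. Its mean was 43.2 ± 2.73 TPM with IL-1β and 71.3 ± 3.24 TPM with the inhibitor (SD, n = 3 each), and the log2 fold change was 0.76 (standard error 0.0327). The groups did not overlap for either receptor. The ratio of Igf1r to Igf2r in TPM was 0.297 to 0.333 in the IL-1β libraries and 0.117 to 0.125 in the others.

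**Figure D3:**
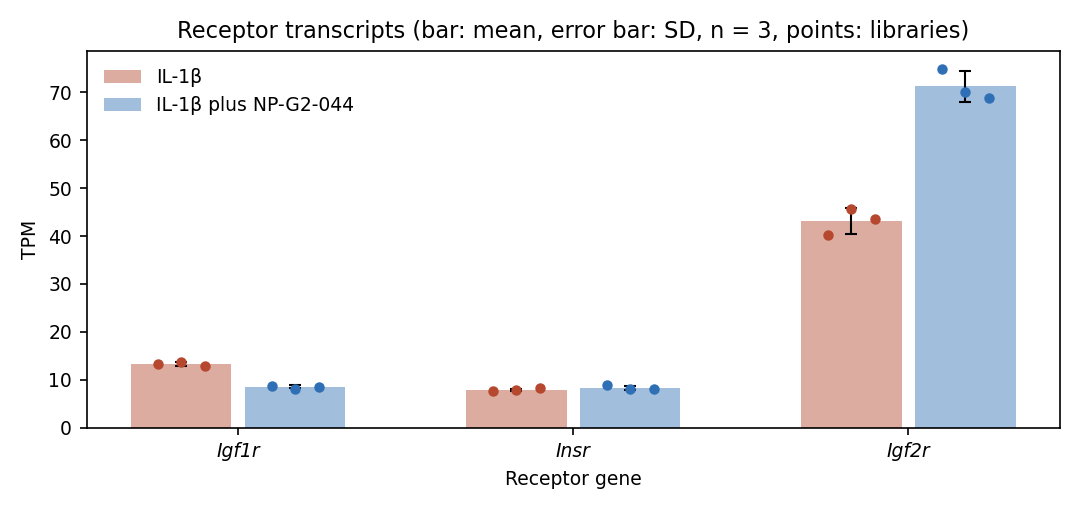
Level of the receptor genes Igf1r, Insr and Igf2r in TPM, with bars for the mean, error bars for the SD (n = 3) and points for the libraries. Igf1r is lower and Igf2r higher with IL-1β plus NP-G2-044, and the Insr points of the groups overlap between 8.04 and 8.21 TPM.

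The insulin receptor gene Insr, whose product can pair with IGF1R, had 7.71, 7.8 and 8.21 TPM with IL-1β and 8.84, 8.06 and 8.04 TPM with the inhibitor. These ranges overlap, and the difference on the log2 scale was 0.11 (adjusted p = 0.0376 by the edgeR quasi-likelihood test). Over the 14 alternatives its adjusted p ranged from 0.0257 to 0.383 and was under the cutoff in 7. The ratio of Igf1r to Insr in TPM was 1.69 ± 0.0956 with IL-1β and 1.03 ± 0.0366 with the inhibitor (SD, n = 3 each), where 1 of the 3 libraries had less Igf1r than Insr and the levels did not differ beyond their spread.

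Ordered by TPM, the levels with IL-1β were Igfbp3, Igfbp6, Igf2r, Igf1r, Igfbp7, Igfbp4 and then the genes near 0. No 2 neighbours among the first 6 of this order had overlapping libraries. With the inhibitor the order was Igf2r, Igfbp4, Igfbp6, Igfbp3, Igf1r, Igfbp7 and then the genes near 0. Here Igfbp3 (8.44 to 10.1 TPM) and Igf1r (8.18 to 8.81 TPM) overlapped and do not differ beyond their spread. Igfbp5, Igf1 and Igf2 overlapped one another with IL-1β. With the inhibitor Igf2 overlapped both others, whereas Igfbp5 (0.02 to 0.03 TPM) lay above Igf1 (0 to 0.01 TPM), on 1 or 2 reads per library against at most 1.

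Of the 10 genes, 6 passed the filter on low counts (Igfbp3, Igfbp4, Igfbp6, Igfbp7, Igf1r and Igf2r), and 4 did not (Igfbp2, Igfbp5, Igf1 and Igf2). Calls rest on the edgeR quasi-likelihood test and on the study's cutoffs, namely a Benjamini-Hochberg adjusted p under 0.05 together with an absolute log2 fold change over 1. Past both cutoffs, 1 of the 6 was higher (Igfbp4) and 3 were lower (Igfbp3, Igfbp6 and Igfbp7), where 16.6% of all tested genes were called, 6.48% higher and 10.1% lower. Igf1r and Igf2r passed the first cutoff alone, which 80% of all tested genes passed, 40.2% higher and 39.8% lower. The libraries of the groups did not overlap for any of the 6, as for 79.4% of all tested genes. Since these genes were picked with such values known, their counts say nothing beyond the values themselves. The plot of all fold changes shows where the 6 lie, with the 2 receptor genes inside the cutoffs.

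**Figure D4:**
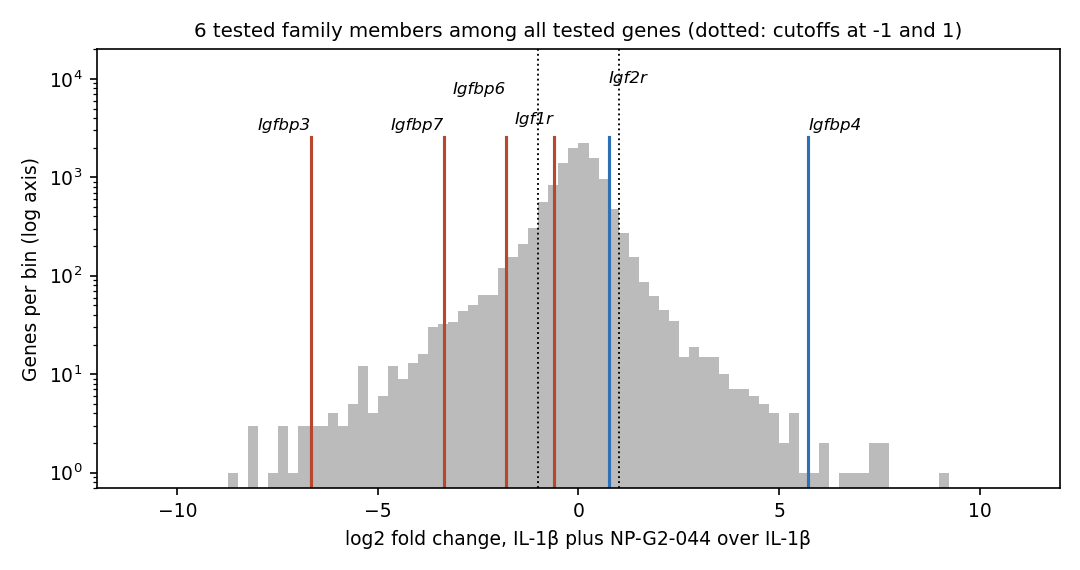
Histogram of the log2 fold change (inhibitor over IL-1β alone) for the 11983 tested genes, with genes per bin on a log axis; coloured lines mark the 6 tested family members and dotted lines the cutoffs. Igfbp3 at −6.67 and Igfbp4 at 5.73 lie in the far tails, and Igf1r and Igf2r lie between the cutoffs.

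The genes next to the 6 on the chromosome were looked up after the members' values were known. Top2a, a cell division gene 17.1 kb from Igfbp4, averaged 310 TPM with IL-1β and 100.9 TPM with the inhibitor, so its log2 fold change of −1.59 was opposite to that of Igfbp4 (adjusted p = 7e-42 by edgeR's test). Soat2, a cholesterol-esterifying enzyme gene 1.01 kb from Igfbp6, rose from 0.22 to 4.6 TPM while Igfbp6 was lower (log2 fold change 4.37, adjusted p = 2.01e-21 by edgeR's test). Spryd3, on the other side of Igfbp6, had a log2 fold change of 0.22. Noa1, 39.2 kb from Igfbp7, had 0.09 and Ttc23, 189.9 kb from Igf1r, had 0.12. Tns3, the next coding gene beyond Igfbp3 at a distance of 1217.7 kb, was lower as Igfbp3 was (log2 fold change −1.30, adjusted p = 2.43e-32 by edgeR's test).

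The genes whose profile over the 6 libraries lay nearest to that of Igfbp3, by Euclidean distance of log2 CPM centred on each gene's mean, were Gas1 at a distance of 0.55, Fam135b at 0.724 and Aldh3a1 at 0.906. Nearest to Igfbp4 were Atf3 at 0.496, Slc6a12 at 0.805 and Elmo1 at 0.825. Log2 fold changes were −6.39 for Gas1, −8.64 for Fam135b and −6.41 for Aldh3a1, against −6.67 for Igfbp3. They were 5.28 for Atf3, 9.04 for Slc6a12 and 5.34 for Elmo1, against 5.73 for Igfbp4. Fam135b averaged 1.33 TPM with IL-1β and 0.00667 TPM with the inhibitor, and Slc6a12 averaged 0 TPM and 2.93 TPM. With 2 groups of 3 libraries this measure mostly reflects the size of the difference between the groups. The log2 CPM add a small count before the log, so differences of genes close to 0 count for less in it.

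Of 76 further genes of the IGF pathway, written in 8 lists by function, 71 were listed and 61 tested. Past both cutoffs, 3 were higher and 8 lower with NP-G2-044, or 18% of the 61, close to the 16.6% of all tested genes. Their median log2 fold change was −0.03, against 0.00185 for all tested genes.

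**Figure D5:**
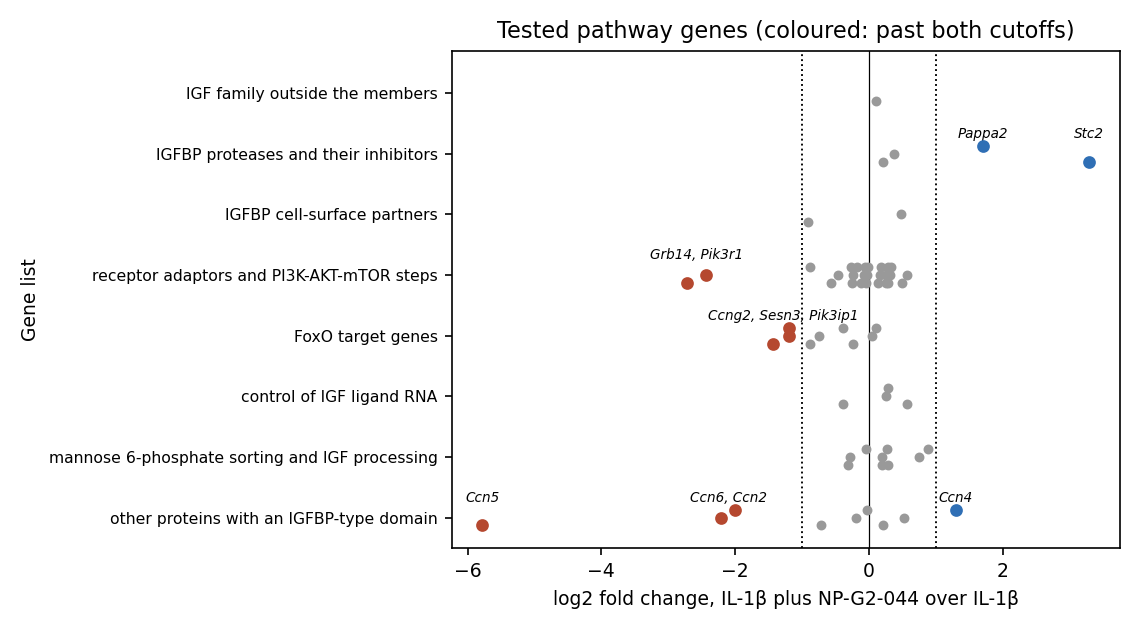
Log2 fold change (inhibitor over IL-1β alone) for each tested gene of the 8 pathway lists, 1 row per list; coloured, named points are past both cutoffs and grey points are not, and genes in 2 lists appear in both. Most points lie between the dotted cutoffs, with Stc2 at 3.30 farthest to the right and Ccn5 at −5.78 farthest to the left.

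Proteases release IGFs by cutting their binding proteins. In the list of 8 such proteases and their inhibitors, 4 were tested, all 4 with a higher level by adjusted p, as for 40.2% of all tested genes, and 2 past both cutoffs, as for 6.48%. Stc2, which encodes stanniocalcin 2, an inhibitor of the pappalysins, had 1.96, 2.4 and 2.04 TPM with IL-1β and 21.1, 21.2 and 19.4 TPM with the inhibitor. It rose by 3.30 on the log2 scale (standard error 0.116, adjusted p = 1.52e-31 by edgeR's test). Pappa2, a pappalysin that cuts IGFBP3 and IGFBP5, rose from 29 reads to 100 over the 3 libraries of each group (log2 fold change 1.70, standard error 0.276, adjusted p = 2.29e-07 by edgeR's test). Pappa, the pappalysin that cuts IGFBP4, had 6, 20 and 10 reads with IL-1β and 1, 1 and 0 reads with the inhibitor. It was below the filter, and its pooled reads were 18.9 times lower with the inhibitor (exact 95% binomial interval 4.88 to 162.4). Its replicate 2 with IL-1β held 20 of the 36 reads. The other tested proteases were Adam9 with a log2 fold change of 0.37 and Htra1 with 0.21.

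Downstream of the receptors, 2 of 26 tested adaptor and PI3K-AKT-mTOR genes were past both cutoffs, both lower, as 10.1% of all tested genes were. Pik3r1, the regulatory p85α subunit of PI3-kinase, had 152.3, 167.7 and 161.4 TPM with IL-1β and 29.3, 29.5 and 28.4 TPM with the inhibitor (log2 fold change −2.43, standard error 0.0312, adjusted p = 1.23e-51 by edgeR's test). Grb14, an adaptor that binds and restrains the insulin receptor, had 6.65 ± 0.849 TPM and 0.983 ± 0.106 TPM (SD, n = 3 each; log2 fold change −2.72, standard error 0.174, adjusted p = 3.18e-20 by edgeR's test). The receptor substrate genes changed little. Irs1 had a log2 fold change of −0.46 (adjusted p = 0.00116) and Irs2 one of −0.23 (adjusted p = 0.000338, both by edgeR's test). Grb10, an imprinted adaptor gene, had no read in any library. Of 9 FoxO target genes tested, 3 were past both cutoffs and lower, against 10.1% of all tested genes. These were Ccng2 at −1.43, Sesn3 at −1.20 and Pik3ip1 at −1.20 on the log2 scale, with adjusted p of 6.61e-28, 1.39e-15 and 7.58e-21 by edgeR's test. Of the 9, 7 were lower and 1 (Insr) higher by adjusted p, against 39.8% and 40.2% of all tested genes, with a median of −0.75. Insr, Irs2 and Htra1 each stand in 2 of the lists.

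For the control of ligand RNA, H19, the imprinted neighbour of Igf2, was not analysed here. The genes of the mRNA-binding proteins named after Igf2 were expressed although Igf2 itself was close to 0. Igf2bp1 had 13.1 ± 0.705 TPM and 15.7 ± 0.52 TPM, and Igf2bp2 26.7 ± 0.501 TPM and 38.6 ± 0.96 TPM (SD, n = 3 each), with log2 fold changes of 0.29 and 0.57 (adjusted p = 4.59e-09 and 6.49e-19 by edgeR's test). Igf2bp3 had a log2 fold change of −0.39 (adjusted p = 0.0245 by edgeR's test), a difference whose adjusted p was over the cutoff in 4 of 13 alternatives, at 0.102 with DESeq2, 0.0916 without IL-1β replicate 1, and 0.163 and 0.0648 without replicate 1 or 2 of the inhibitor group. In the list of 9 genes of mannose 6-phosphate sorting and IGF processing, the route in which IGF2R works, none was past both cutoffs, and 6 were higher and 2 lower by adjusted p by edgeR's test, against 40.2% and 39.8% of all tested genes. The median log2 fold change of this list was 0.20, against 0.76 for Igf2r. Neither of the cell-surface partners Lrp1 and Tmem219 was past both cutoffs, at −0.91 and 0.47 on the log2 scale.

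Of 11 other genes whose proteins carry an IGFBP-type domain, 9 were tested and 4 were past both cutoffs, where 16.6% of all tested genes were. Ccn5 fell from 124 reads to 2 over the libraries of each group, and its pooled reads were 65.3 times lower with the inhibitor (exact 95% binomial interval 17.7 to 544.8; adjusted p = 3.03e-16 by edgeR's test). Ccn6 was lower with a log2 fold change of −2.21 on 41 against 9 reads, and Ccn2, the connective tissue growth factor gene, with −1.99 on 111 against 29 reads (adjusted p = 2.19e-05 and 1.04e-08 by edgeR's test). The gene called higher, named after its value was seen, was Ccn4, from 6.13 ± 0.482 TPM to 14.8 ± 0.325 TPM (SD, n = 3 each; log2 fold change 1.30, adjusted p = 1.17e-26 by edgeR's test). Ccn1 averaged 34.4 TPM and 32.9 TPM, a log2 difference of −0.03 that did not pass the test. Ccn2 and Ccn6 were not past the fold cutoff with limma on log2(TPM + 1), where their log2 fold changes were −0.90 and −0.52, nor was Pappa2, at 0.27.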

How the data were processed

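Total RNA of 6 samples labelled as ATDC5 cells was sequenced, and the 6 libraries fall into 2 groups of 3 by their titles. The methods give biological replicates without saying whether these were separate cultures or animals, so that p-values measure only the spread between these samples, which may be technical. The deposited expected counts are estimates of reads per gene that the authors left without normalization, and 10.2% to 11.1% of them per library are not whole. The deposited TPM were made by the authors for each library. The submitters' processing notes name cutadapt, HISAT2 2.0, StringTie and the build mm10. The sources used here name no counting tool, annotation or strand setting. The FPKM columns and columns of group means were left aside.

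After rounding, genes were kept by filterByExpr at a minimum count of 10, scaled by TMM factors and tested, 3 libraries against 3, by the robust quasi-likelihood method in edgeR 4.0.16 without covariates in R 4.3.3. Benjamini-Hochberg adjustment ran over 11983 genes. The standard error is the log2 fold change over the square root of F. The steps were tested on simulated counts. Pooled reads were compared as ratios scaled by read totals. Positions, exon overlaps and neighbours came from GENCODE vM21 (GRCm38, the assembly of mm10), and promoter sequences from RefSeq (GRCm38.p6), matched by Entrez gene ID for all 10 genes. Protein sequences were not used here.

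Alternatives were DESeq2 1.42.0, its size factors or library size alone in edgeR, limma 3.58.1 on log2(TPM + 1) and log2(TPM + 0.1), no filter, a floor of 10 CPM in 3 or more libraries, a block for the replicate number, and omission of each library. Named are all 10 members, Fscn1, the called genes of each pathway list with 11 fixed ones, and the 3 nearest profiles of Igfbp3 and Igfbp4. Adam9, Htra1, Lrp1, Tmem219 and Ccn1 are named as well, though they were neither called nor fixed. Members and lists were chosen with earlier results of these data known. For genes with 60 or more pooled reads, squared differences between libraries of the same group exceeded those of sampling noise 1.54 to 2.39 times. This excess does not show whether the libraries come from separate cultures, and each library was counted as 1 replicate.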

Additional observations from a re-analysis of the deposited data

How the results depend on the processing

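The 6 tested family members kept their direction under every alternative that gave a value. In these, Igfbp3, Igfbp4, Igfbp6 and Igfbp7 stayed past both cutoffs together, and Igf1r and Igf2r never passed both. There were 14 alternatives for each gene except Igfbp7. It had 13 because a floor of 10 CPM in 3 or more libraries removed it and left 2 members called lower. Their log2 fold changes ranged from −6.74 to −6.56 for Igfbp3, 4.80 to 5.82 for Igfbp4, −1.87 to −1.69 for Igfbp6, −3.74 to −1.43 for Igfbp7, −0.65 to −0.59 for Igf1r and 0.71 to 0.79 for Igf2r. The same stricter filter tested 9447 genes and called 484 higher and 680 lower over all genes and 4 pathway genes lower, as fewer genes were tested. Limma on log2(TPM + 1) called 514 higher and 802 lower over all genes. Against these, the counts reported were 776 higher and 1211 lower. The summed binding-protein level was 14.9 times lower with the inhibitor when CPM replaced TPM, which weighs long transcripts more, against 12.3 times, and 12 to 12.6 times with a library left out. With the replicate number as a block, 775 genes were called higher and 1209 lower, with 1 member higher and 3 lower and 3 and 8 pathway genes, so the block changed no call of a member. Same-numbered libraries did not visibly deviate together (correlations of −0.0934, −0.0236 and 0.0259 across genes). With 3 libraries per group and small differences within groups, this cannot decide whether the numbers pair the samples. With few reads, Igfbp2, Igfbp5, Igf1 and Igf2 allow no statement on a difference.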
